A study of Papio hamadryas with 14 samples.

Results

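The last interval of fetal sampling in this study of the baboon (Papio hamadryas) kidney ran from 125 to 160 days of gestation. Whole kidneys at 160 days (160dG, 3 arrays) were compared with whole kidneys at 125 days (125dG, 3 arrays), and the arrays were assigned to these groups by their sample titles. They make up 6 of the 14 arrays in the series, which also holds kidneys at 60dG (2 arrays), 90dG (3 arrays) and adulthood (3 arrays, from animals of 6, 12 and 7 years). The animals are described by species, tissue and age alone. The fetal titles call the replicates biological, but no sex, mother, litter or processing date is given. Whether replicates of a stage share a mother is therefore unknown, and the p-values measure the spread between these samples.

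Nephrons form in the outer rim of the fetal kidney, where progenitor cells gather around the tips of the branching ureteric bud, condense into vesicles and mature through comma and S-shaped bodies into glomeruli and tubules. In baboons, as in humans, this process ends before birth, and the progenitor pool is then used up. Tubule segments keep acquiring transporters and enzymes during the same weeks. The comparison asks which messenger RNAs differed between kidneys late in this process and kidneys of an earlier stage of it.

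The arrays are human Affymetrix arrays, and a mismatch between a baboon transcript and a human probe can lower the signal. Values are probe set signals on a linear scale, and the level of one gene is not set against that of another. The median signal of the 6 arrays lay between 179 and 195. The ratio of the 3′ to the 5′ GAPDH control probe sets, a sign of RNA integrity, lay between 1.62 and 1.96 at 160dG and between 1.66 and 1.99 at 125dG. Differences were computed as 160dG minus 125dG on log2(signal + 16), which understates the change of dim genes, and tested with limma in a fit of all 11 fetal arrays. A gene is said to have risen or fallen only where its Benjamini-Hochberg adjusted p over all 5278 tested genes was under 0.05. The number of arrays limits the precision: the median 95% interval reached 0.46 on the log2 scale to either side of the difference, or 1.37-fold. For 4734 of the tested genes (89.7%) that interval lay wholly within a 2-fold change either way.

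Few genes passed the test over these 35 days. Of 5278 genes, 17 differed (0.322%), of which 4 rose (0.0758%) and 13 fell (0.246%). The 4 that rose were PTGER4, EAPP, RGS5 and NPR3. The 13 that fell were AFP, COL2A1, ADGRG2, LEF1, MYCN, CKS2, PRC1, CCNB2, H2AX, DKK1, HMGA2, BASP1 and MARCKSL1. For each of the 17 the arrays at 160dG did not overlap those at 125dG, and the difference was at least 2-fold for 16 of them, the exception being MARCKSL1. Of all tested genes 7.01% were higher without overlap, 8.11% were lower without overlap, and 0.89% differed at least 2-fold. Because the 17 were selected on this same difference, both traits describe them and add no support to the calls. At an unadjusted p under 0.05 there were 436 genes (8.26%), 186 of them higher (3.52%) and 250 lower (4.74%). The number of calls fell to 0 without 125dG replicate 1 (365 genes at an unadjusted p under 0.05 by limma, and adjusted p between 0.0636 and 0.201 for the 17), to 4 without 160dG replicate 3, to 6 without 160dG replicate 1 or 90dG replicate 2, to 7 without 125dG replicate 2 or 3, and to 11 without 90dG replicate 3. It fell to 1, PTGER4, in a fit of the 6 arrays alone, to 6 with a stricter filter on dim genes, to 7 without an intensity trend and to 9 without the 90dG arrays, and no difference changed sign.

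**Figure D1:**
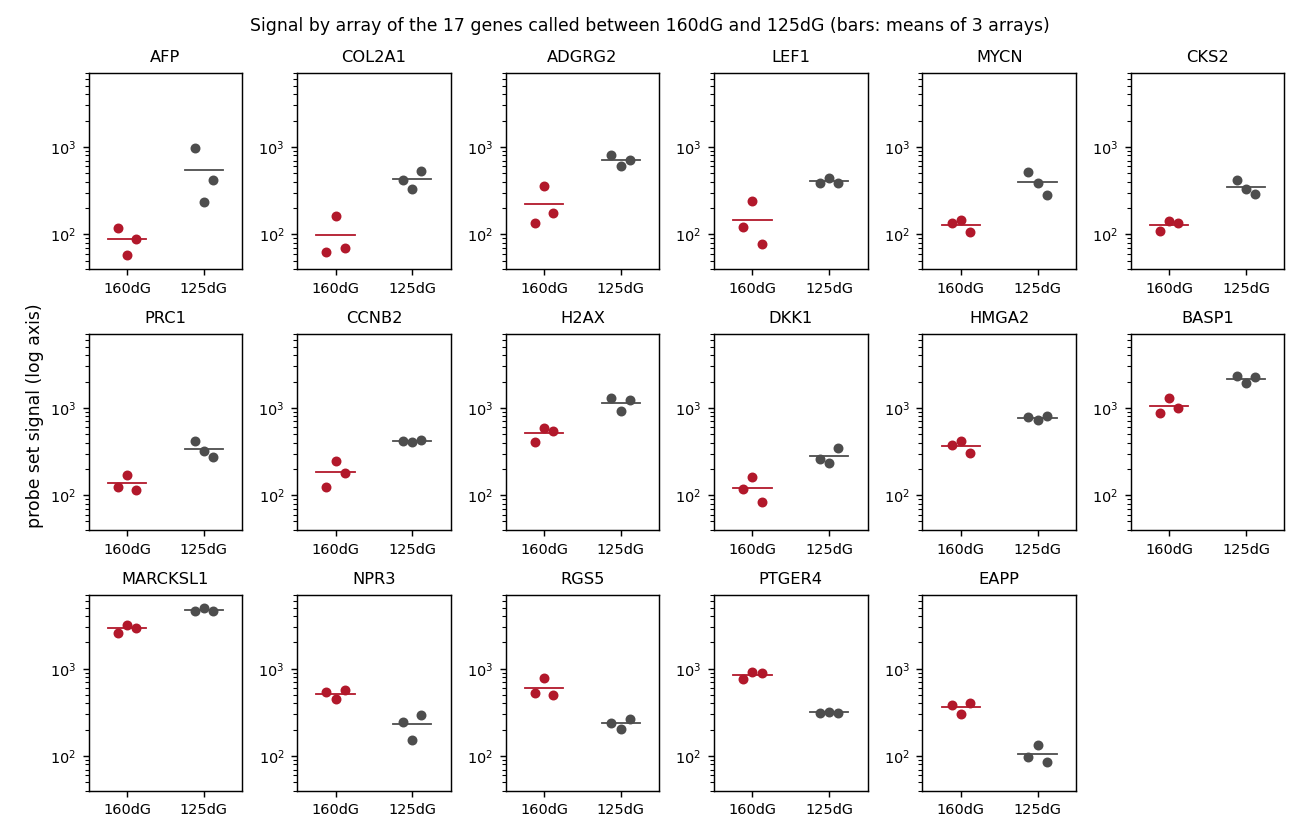
Probe set signal on a log axis, 1 panel a gene, for the 17 genes that passed at an adjusted p under 0.05, with 160dG arrays in red to the left, 125dG arrays in grey to the right and bars for the means of 3 arrays. In every panel the points of the 2 stages are separate, and AFP at 125dG has the widest scatter, between 237 and 970 (969.7 on replicate 1).

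Genes of the nephron progenitor, the cap of cells that gives rise to nephrons, were mostly lower at 160dG, and 2 of the 12 tested members of that list fell, against 0.246% of all tested genes. Their median log2 difference was -0.41, against -0.00 over all tested genes, of which 49.3% had a positive difference. Of the 12, 2 had a positive difference and 10 a negative one. At an unadjusted p under 0.05, 5 were lower and 1 higher, against 4.74% lower and 3.52% higher of all tested genes. Of the 12, 5 averaged under the signal filter of 178 at 160dG and so were tested because of other stages. Over all 17 measured members, including those under the filter, 15 had a negative difference and the median was -0.39, against 47.7% and a median of 0.02 over all 9580 measured genes. The medians of the 3 arrays at 160dG were -0.47, -0.35 and -0.39 relative to the 125dG means, so all 3 arrays lay on the same side. COL2A1 and MYCN, the members that fell, are also known outside the kidney.

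COL2A1, which encodes the type II collagen chain of cartilage, had signals of 62.6, 161 and 69.6 in the 160dG kidneys, against 418, 331 and 527 in the 125dG kidneys. It fell by 2.03 ± 0.27 on the log2 scale (SE of the fit; limma, adjusted p = 0.00712). The highest 160dG array lay below the lowest 125dG array by more than 2-fold. A second probe set of the gene had a log2 difference of -1.13 ± 0.22. COL2A1 kept its call in each fit that left out 1 array except that without 125dG replicate 1 (adjusted p = 0.0636).

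MYCN, a MYC-family transcription factor that drives growth of progenitor cells, had signals of 134, 144 and 107 at 160dG, against 524, 389.7 and 279 at 125dG. It fell by 1.48 ± 0.25 on the log2 scale (limma, adjusted p = 0.0257). The 160dG arrays were close together and the 125dG arrays spread almost as widely as their distance from them. The call was lost when any of 5 arrays was left out (adjusted p up to 0.161), which were 90dG replicate 2, 125dG replicates 1 and 2, and 160dG replicates 1 and 3.

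Other progenitor genes had smaller differences that did not pass. PAX2, a transcription factor of progenitors and of the ureteric bud, had signals of 298, 392 and 395 at 160dG, against 546, 508 and 439.7 at 125dG, and a log2 difference of -0.45 ± 0.18. HOXD10, a posterior homeobox gene, had one of -0.55 ± 0.15, without overlap between 438 to 552 at 160dG and 702 to 737 at 125dG. EYA1, a transcriptional coactivator required for kidney formation, had 137, 122 and 171 at 160dG, against 136, 187 and 170.3 at 125dG, so the stages overlapped (-0.18 ± 0.22). FGF9, a growth factor known in the mouse to maintain progenitors, lay in the other direction, with 522, 446 and 408 at 160dG, against 294, 347 and 275 at 125dG (0.56 ± 0.20, adjusted p = 0.388). The progenitor markers CITED1 and SIX2 lay under the signal filter and were not tested. SIX2 averaged 95.1 ± 21.4 at 160dG and 111 ± 15.6 at 125dG (SD, n = 3 each), and CITED1 averaged 28.5 ± 26.3 at 160dG and 46.5 ± 44.2 at 125dG (SD, n = 3 each). The stages overlapped for both genes.

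Genes of early nephron structures and of the ureteric bud gave no call. In the early nephron list, 5 of 12 members had an unadjusted p under 0.05, all of them lower (4.74% of all tested genes were), and the median log2 difference was -0.23. Over all 14 measured members 10 had a negative difference and the median was -0.16. Over all 9580 measured genes 47.7% were negative, with a median of 0.02. LHX1, a homeobox gene of the renal vesicle, had signals of 157, 159 and 88.4 at 160dG, against 275, 195 and 245 at 125dG (-0.78 ± 0.25, adjusted p = 0.308). LHX1 averaged 135 at 160dG, under the signal filter of 178, and so was tested because of other stages. JAG1, a Notch ligand, had a log2 difference of -0.59 ± 0.24 on the probe set used, while its other probe sets gave 0.40 ± 0.43 and -0.14 ± 0.16. BMP7, a survival signal for progenitors, had one of -0.60 ± 0.23. In the ureteric list, 2 of 9 members had an unadjusted p under 0.05, both lower (against the same 4.74%), with a median of -0.31. Over all 14 measured ureteric members 10 were negative, with a median of -0.31. ETV5, a transcription factor downstream of the receptor RET, had 124, 153 and 191 at 160dG, against 335, 261 and 275 at 125dG (-0.85 ± 0.20, adjusted p = 0.126), and these did not overlap. ETV5 averaged 156 at 160dG, also under the filter, and was tested because of other stages. RET itself ranged between 98.7 and 377 at 160dG and between 256 and 321 at 125dG, so the stages overlapped (-0.39 ± 0.34). SOX9, a transcription factor in both lists, had a difference of -0.82 ± 0.23 on one probe set and of 0.18 ± 0.29 on the other, so its direction depends on the probe set.

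In the Wnt pathway, LEF1 and DKK1 fell. Wnt signals from the ureteric bud and from progenitors act through beta-catenin and start the conversion of progenitors into epithelium, for which LEF1 is a nuclear partner of beta-catenin and DKK1 a secreted inhibitor of the Wnt co-receptors. LEF1 had signals of 122, 242 and 77.8 at 160dG, against 388, 441 and 392 at 125dG, and fell by 1.50 ± 0.28 on the log2 scale (limma, adjusted p = 0.0367). At 160dG replicate 2 was the highest, and the 125dG arrays were tight. DKK1 had signals of 118, 160.0 and 83.2 at 160dG, against 259, 234 and 343 at 125dG, and fell by 1.13 ± 0.22 (limma, adjusted p = 0.046). Both calls were lost without any 1 of 10 of the 11 arrays, 160dG replicate 2 being the exception for each (adjusted p up to 0.161 for LEF1 and 0.2 for DKK1). Of the 28 tested Wnt genes 2 fell, against 0.246% of all tested genes. At an unadjusted p under 0.05, 5 were lower and 0 higher, against 4.74% and 3.52% of all tested genes, and the list's median was -0.16. LEF1 and DKK1 averaged 147 and 120.5 at 160dG, under the signal filter of 178, and so were tested because of other stages. Over all 32 measured Wnt genes 20 had a negative difference and the median was -0.134, against 47.7% and a median of 0.02 over all 9580 measured genes. The receptor FZD2 had a log2 difference of -0.85 ± 0.26 and the co-receptor LRP5 one of -0.71 ± 0.26, neither of which passed.

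Genes of mitosis and the spindle were mostly lower at 160dG, and CKS2, PRC1 and CCNB2 fell. Of 46 listed genes 44 were measured and 20 passed the signal filter, and 12 of these 20 averaged under the filter's 178 at 160dG, so they were tested because of earlier stages at which they were brighter. Over all 44 measured members, including the 24 under the filter, 40 had a negative log2 difference and the median was -0.753, against 47.7% negative and a median of 0.02 over all 9580 measured genes. The 20 tested members all had a negative difference, with a median of -0.78, against -0.00 over all tested genes, a description that the filter affects. The stages did not overlap for 15 of the 20, all lower at 160dG, against 8.11% of all tested genes. At an unadjusted p under 0.05 there were 14 of the 20, against 4.74% of all tested genes. The medians of the 160dG arrays were -1.09, -0.45 and -0.85 relative to 125dG, with replicate 2 nearest to the earlier stage. In bulk tissue, fewer dividing cells and less of these RNAs per cell cannot be told apart.

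CKS2, a small subunit that binds cyclin-dependent kinases, had signals of 111, 142 and 134 at 160dG, against 419.9, 328 and 291 at 125dG. It fell by 1.31 ± 0.19 on the log2 scale (limma, adjusted p = 0.00862). It lost its call without 125dG replicate 1 (adjusted p = 0.0829) and kept it without any other single array. PRC1, which bundles microtubules at the spindle midzone, had 123, 172 and 115 at 160dG, against 413, 322 and 270.3 at 125dG. PRC1 fell by 1.20 ± 0.20 (limma, adjusted p = 0.0257). CCNB2, a mitotic cyclin, had 123, 244 and 179.9 at 160dG, against 416, 404 and 428 at 125dG, and fell by 1.17 ± 0.23 (limma, adjusted p = 0.0486). For each of the 3 genes the 160dG arrays all lay below the 125dG arrays. PRC1 lost its call without any 1 of 5 arrays (90dG replicate 2, 125dG replicates 1 and 2, 160dG replicates 1 and 3; adjusted p up to 0.161), and CCNB2 without any 1 of 10, all but 160dG replicate 2 (up to 0.201).

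The log2 differences of the division genes that did not pass lay between -1.36 for PLK1 and -0.15 for CDKN3, with CCNB1 at -0.19 and TPX2 at -0.42, and these 4 genes were named after their values were seen. CCNA2, the cyclin of S phase and G2, had a log2 difference of -1.12 ± 0.27 and CDC20, an activator of the anaphase-promoting complex, one of -1.31 ± 0.32 (adjusted p = 0.143 and 0.147). TOP2A, the topoisomerase that untangles replicated chromosomes, had 89.6, 159 and 111 at 160dG, against 193, 151 and 358 at 125dG, and the stages overlapped (-0.83 ± 0.35). MKI67, a widely used marker of cycling cells, had 142, 139 and 95.8 at 160dG, against 187, 182 and 181 at 125dG, without overlap but with an interval of the log2 difference that reached from -1.05 to 0.03. Among 19 genes of DNA replication and entry into S phase, 5 had an unadjusted p under 0.05, all lower (4.74% of all tested genes were), and 0 passed. The median of that list was -0.24. Of the 19, 4 averaged under the filter's signal of 178 at 160dG, MCM4 among them, and so were tested because of other stages. Over all 33 measured members 24 had a negative difference, with a median of -0.24. Over all 9580 measured genes 47.7% were negative, with a median of 0.02. The helicase subunits MCM6 (-0.67 ± 0.17), MCM4 (-0.97 ± 0.28) and MCM3 (-0.82 ± 0.29) were among the 5, although a second probe set of MCM4 gave -0.12 ± 0.21. RRM1, the large subunit of ribonucleotide reductase, had 333, 813 and 391 at 160dG, against 956, 773 and 1019 at 125dG, so that 160dG replicate 2 lay inside the 125dG range.

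H2AX, the histone variant that marks DNA breaks and whose messenger is abundant in dividing cells, fell too. Its signals were 408, 594 and 542 at 160dG, against 1285, 924 and 1243 at 125dG, and it fell by 1.14 ± 0.20 on the log2 scale (limma, adjusted p = 0.0257). Its other probe sets gave smaller differences of -0.22 ± 0.23 and -0.49 ± 0.28. The call was lost without any 1 of 5 arrays (90dG replicate 2, 125dG replicates 1 and 3, 160dG replicates 1 and 3; adjusted p up to 0.174). Of 16 genes of DNA methylation and Polycomb, which silence chromatin, 4 were lower and 1 higher at an unadjusted p under 0.05 (4.74% and 3.52% of all tested genes), and 0 passed. EZH2, the Polycomb methyltransferase of dividing cells, had 178, 254 and 168 at 160dG, against 299, 305 and 352 at 125dG (-0.65 ± 0.20). EZH1, its paralogue in resting cells, lay the other way, with 372, 413 and 473 at 160dG, against 289, 308 and 218 at 125dG (0.60 ± 0.19). The stages did not overlap for either gene, and neither passed (adjusted p = 0.277 and 0.308).

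Fetal plasma and oncofetal genes, which are active before birth and in some tumours, included HMGA2 and AFP among those that fell. Of the 14 tested members 2 fell, against 0.246% of all tested genes, and 7 were lower and 1 higher at an unadjusted p under 0.05, against 4.74% and 3.52%. Their median was -0.47, but it was -0.147 over all 24 measured members. Of the 14, 3 averaged under the filter's signal of 178 at 160dG, AFP among them, and so were tested because of other stages. HMGA2, a chromatin protein of proliferating embryonic tissue, had signals of 380.2, 418 and 307 at 160dG, against 777, 725 and 799.7 at 125dG, and fell by 1.04 ± 0.16 on the log2 scale (limma, adjusted p = 0.0111). Within each stage the arrays were tight beside the gap between the stages. AFP, the alpha-fetoprotein of fetal liver and yolk sac, had 117, 58.3 and 88.3 at 160dG, against 969.7, 237 and 415 at 125dG, and fell by 2.23 ± 0.39 (limma, adjusted p = 0.0257). The 125dG arrays of AFP differed among themselves by more than 4-fold. HMGA2 lost its call without 125dG replicate 1 or 3 or 160dG replicate 3 (adjusted p up to 0.0829). AFP lost it without 90dG replicate 2, 125dG replicate 1 or 3, or any 160dG array (up to 0.121).

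The related gene HMGA1 had a log2 difference of -0.81 ± 0.21, and GPC3, a cell-surface proteoglycan that restrains fetal growth, one of -0.84 ± 0.25, neither of which passed. DLK1, an imprinted growth regulator, had 3240.3, 1780.1 and 2889 at 160dG, against 1496, 1678 and 2047 at 125dG, and a difference of 0.56 ± 0.25. The globins lay in opposite directions. HBE1, the embryonic epsilon chain, had 112, 119 and 136 at 160dG, against 399, 182 and 271 at 125dG (-1.06 ± 0.32, adjusted p = 0.276). HBB, the adult beta chain, had 687, 536 and 573 at 160dG, against 334, 332 and 298 at 125dG (0.86 ± 0.20, adjusted p = 0.126). The stages did not overlap for either globin, and the other HBB probe sets gave 1.17 ± 0.23 and 0.94 ± 0.21.

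BASP1, MARCKSL1 and ADGRG2, which belong to none of the gene lists, fell as well. BASP1, a membrane-bound protein of growing cell processes, had signals of 879.8, 1313 and 993 at 160dG, against 2337, 1914 and 2230.0 at 125dG (-1.03 ± 0.18; limma, adjusted p = 0.0257). MARCKSL1, an actin-regulating protein kinase C substrate, had 2561, 3172 and 2958 at 160dG, against 4645, 4979 and 4553 at 125dG (-0.71 ± 0.12; limma, adjusted p = 0.0257). Both genes were bright, and MARCKSL1 was tight within each stage. BASP1 was more spread at 160dG (SD on the log2 scale 0.29, n = 3) than at 125dG (0.15, n = 3). ADGRG2, an adhesion receptor best known from the epididymis, had 135, 353 and 174 at 160dG, against 803, 607 and 708 at 125dG (-1.71 ± 0.32; limma, adjusted p = 0.0367). Replicate 2 was again the highest of the 160dG arrays for all 3 genes. The calls were lost without any 1 of 5 arrays for BASP1 (each 125dG array, 160dG replicates 1 and 3), of 6 for MARCKSL1 (those 5 and 90dG replicate 2) and of 7 for ADGRG2 (those 5 and 90dG replicates 2 and 3), with adjusted p up to 0.161, 0.161 and 0.201.

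**Figure D2:**
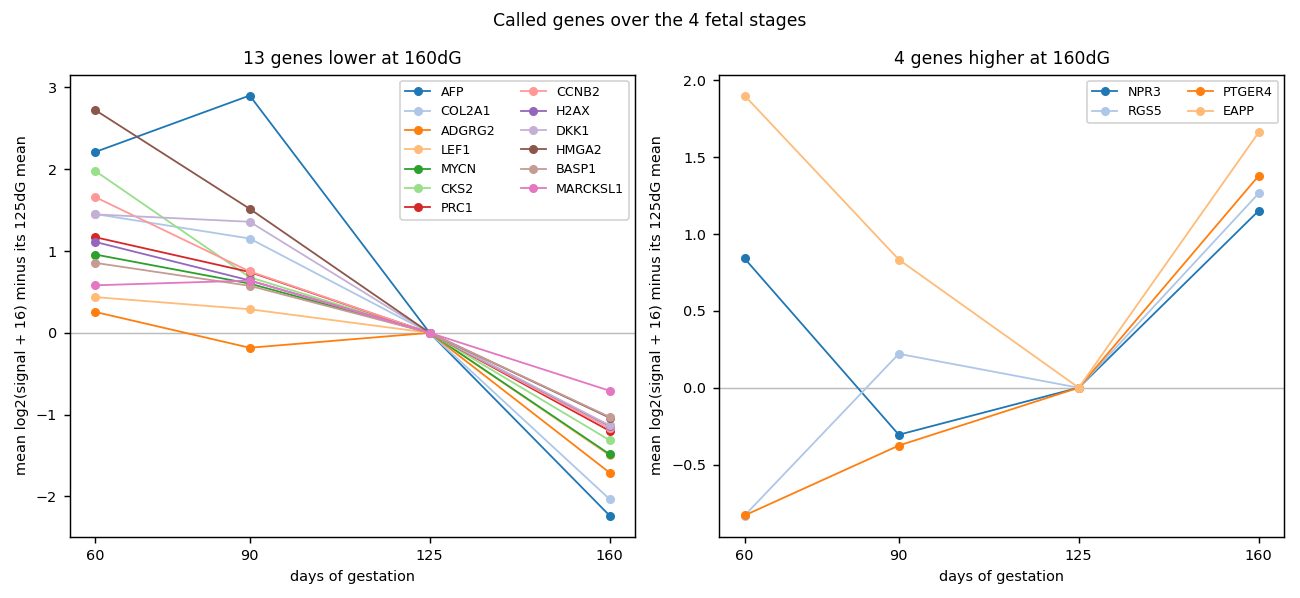
Mean log2(signal + 16) of the 17 called genes at 60, 90, 125 and 160 days of gestation, each relative to its own 125dG mean, with the 13 lower genes on the left and the 4 higher genes on the right. Of the 13 lower genes, 10 have means that fall at every stage, and 3 of the 4 higher genes have their highest mean at 160 days, EAPP being highest at 60 days.

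The 13 genes that fell were mostly already falling, as the plot over the fetal stages shows. The means of 10 of them decreased at every stage, 11 were highest at 60dG, and 6 also fell between 90dG and 125dG, where 2.61% of tested genes fell. That earlier comparison uses the same 125dG arrays as the later one. AFP, COL2A1, DKK1, MYCN, CKS2, PRC1 and LEF1 averaged under the filter's signal of 178 at 160dG. They were tested because of earlier, brighter stages, so the filter affects these counts. How many of all tested genes decreased at every stage or were highest at 60dG was not counted. HMGA2 averaged 5156, 2230.2, 767 and 368 at 60dG, 90dG, 125dG and 160dG. COL2A1 averaged 1171, 949, 425 and 97.9 over the same stages. ADGRG2 differed in shape, with means of 876, 635, 706 and 221. On the adult arrays, which are of another type and were set beside the fetal ones without a test, 9 of the 13 had a lower mean than at 160dG. The share of all tested genes with a lower adult mean was not counted. The adult and 160dG means were nearly equal for COL2A1 (95.8 and 97.9) and ADGRG2 (218.7 and 220.5), both among the 9. They were also nearly equal for CKS2 (129.3 and 129.0), which was not.

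Among the genes that rose, PTGER4 had the smallest SE. It encodes the EP4 receptor, through which prostaglandin E2 raises cyclic AMP in glomeruli, vessels and tubules. Its signals were 753, 918 and 884 at 160dG, against 312, 322 and 315 at 125dG. It rose by 1.38 ± 0.18 on the log2 scale (limma, adjusted p = 0.00712). It lost its call without 125dG replicate 1 (adjusted p = 0.0636) and kept it without any other single array. Over the fetal stages its mean was 172, 243, 316 and 852, and it was 799.6 ± 133 (SD, n = 3) in adults. Of the 8 tested genes of prostaglandin synthesis and reception, 7 had a positive difference, against 49.3% of all tested genes, with a median of 0.43, and PTGER4 alone passed (0.0758% of all tested genes rose). Over all 17 measured members 13 were positive, with a median of 0.373. PTGER3, the EP3 receptor of the thick ascending limb and collecting duct, had 933, 933 and 626 at 160dG, against 312, 554 and 504 at 125dG (0.86 ± 0.22, adjusted p = 0.187). Its other probe sets gave 0.96 ± 0.28 and 0.76 ± 0.25.

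NPR3, the clearance receptor that removes natriuretic peptides and is found in podocytes, rose. Its signals were 545, 444 and 564 at 160dG, against 245, 152 and 296 at 125dG, a rise of 1.15 ± 0.22 on the log2 scale (limma, adjusted p = 0.046). A second probe set gave 0.84 ± 0.27. The call was lost without any 1 of 10 arrays, all but 125dG replicate 3 (adjusted p up to 0.2). None of the other 10 tested genes of the renin-angiotensin and natriuretic peptide systems had an unadjusted p under 0.05, and the median of the 11 was 0.12.

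RGS5, a regulator of G-protein signalling that marks pericytes, rose, alone among the tested genes of its list. Its signals were 529, 783 and 495 at 160dG, against 239.5, 206 and 267 at 125dG, a rise of 1.27 ± 0.24 (limma, adjusted p = 0.046). The call was lost without any single 90dG, 125dG or 160dG array (adjusted p up to 0.201). The 14 tested genes of pericytes, mesangium and smooth muscle had a median of 0.07. MCAM, an adhesion molecule of vessel walls, had 156, 175 and 171 at 160dG, against 303, 272 and 316 at 125dG (-0.77 ± 0.18, adjusted p = 0.126). NOTCH3, the Notch receptor of mural cells, had a log2 difference of -0.54 ± 0.23 with overlapping stages.

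EAPP, a phosphoprotein that binds E2F transcription factors, rose, and its 125dG mean was the lowest of the 4 fetal stages. Its signals were 387, 299.9 and 408 at 160dG, against 96.9, 133 and 85.1 at 125dG, a difference of 1.66 ± 0.24 (limma, adjusted p = 0.00862). Its means over the fetal stages were 432, 201, 105 and 365, so that the 160dG mean lay near that of 60dG. The call was lost without 125dG replicate 1 or 160dG replicate 3 (adjusted p up to 0.0815).

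Genes of the loop of Henle had the most positive median of any list with 5 or more tested genes, 0.86 over 7 genes, and 0 of them passed. The thick ascending limb of the loop reabsorbs salt and dilutes urine. At an unadjusted p under 0.05, 5 of the 7 were higher and 1 lower, against 3.52% and 4.74% of all tested genes. Over all 10 measured members 9 were positive, with a median of 0.755. SLC12A1, the sodium-potassium-chloride cotransporter that loop diuretics block, had 2471, 1559 and 1371 at 160dG, against 818, 974 and 553 at 125dG. Its log2 difference was 1.18 ± 0.24 and its adjusted p 0.0631, just outside the threshold. KCNJ1, the potassium channel that works with it and named here after its values were seen, had 739.7, 526 and 397 at 160dG, against 216, 291 and 197 at 125dG (1.16 ± 0.51). For these 2 genes no 160dG array fell within the 125dG range. DEFB1, an antimicrobial peptide of the loop and distal tubule, had 1261, 653 and 1035 at 160dG, against 469, 697 and 412 at 125dG, with overlap (0.87 ± 0.24). SPP1, the secreted phosphoprotein osteopontin, was the exception, with 156, 142 and 245 at 160dG, against 408, 239.9 and 336 at 125dG (-0.81 ± 0.25). The list's medians on the 160dG arrays were 1.05, 0.86 and 0.48.

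**Figure D3:**
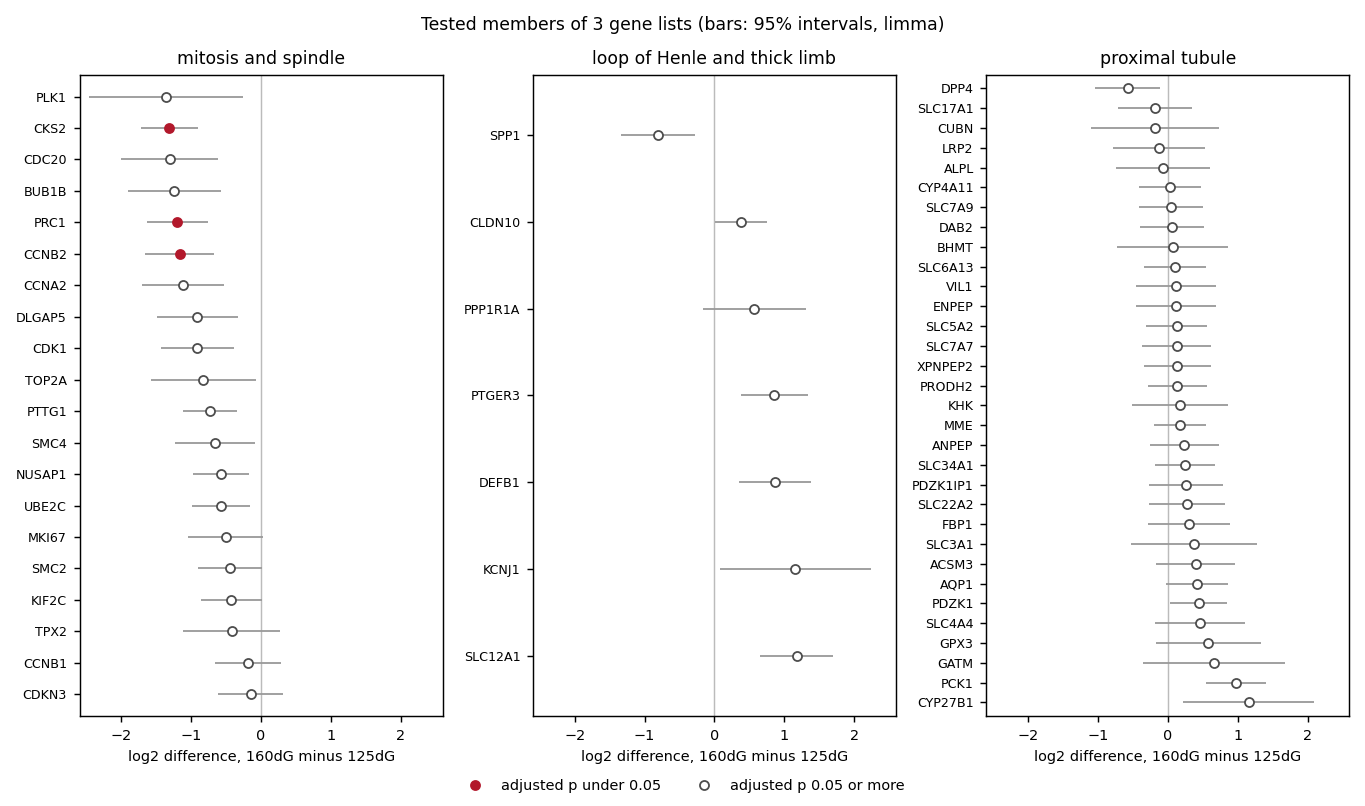
Log2 difference, 160dG minus 125dG, with its 95% interval from limma for each tested member of 3 lists, where filled points passed at an adjusted p under 0.05. All 20 mitosis and spindle genes lie left of 0 and 3 are filled, 6 of 7 loop of Henle genes lie right of 0, and the 32 proximal tubule genes straddle 0 with a median of 0.15, with none filled in either tubule list.

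Proximal tubule genes, which serve bulk reabsorption, mostly had small positive differences. Of the 32 tested members 27 had a positive difference (84.4%, against 49.3% of all tested genes), the median was 0.15, and 0 passed. At an unadjusted p under 0.05, 3 were higher and 1 lower, against 3.52% and 4.74% of all tested genes. The 160dG arrays disagreed, with list medians of 0.18, -0.20 and 0.60 relative to 125dG. LRP2, the endocytic receptor megalin, was high on replicate 3 alone, with 1683, 1739 and 4539.9 at 160dG, against 2923, 2329.9 and 2559 at 125dG (-0.13 ± 0.31). AQP1, the water channel of proximal tubule and thin descending limb, had 2566, 1801 and 3389 at 160dG, against 1935, 2094 and 1608 at 125dG (0.42 ± 0.21). For both genes 160dG replicate 3 was the highest of the 6 arrays and the stages overlapped. SLC34A1, the phosphate cotransporter of the brush border, had a log2 difference of 0.24 ± 0.20, and the chemokine CXCL14 had one of 0.38 ± 0.34 with signals of 1579.6, 1558 and 3808 at 160dG, against 1931, 1404 and 1575 at 125dG. The summed signal of all measured proximal tubule genes lay between 28118.5 and 53865.4 at 160dG and between 31900.6 and 36376.5 at 125dG.

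Within that list PCK1 and CYP27B1 had the most positive differences. PCK1, the cytosolic enzyme of gluconeogenesis, had 564, 388 and 497 at 160dG, against 251, 236 and 218 at 125dG, and the stages did not overlap (0.98 ± 0.20, adjusted p = 0.0631). CYP27B1, which activates vitamin D, had 826, 220.4 and 593 at 160dG, against 149, 141 and 408 at 125dG (1.15 ± 0.44). Its stages overlapped. DPP4, a brush border peptidase, was the lower member, at -0.57 ± 0.22. Outside the list, AOC1, the diamine oxidase that degrades histamine and putrescine, had 965, 676 and 1770.0 at 160dG, against 492, 514 and 346 at 125dG, without overlap (1.21 ± 0.32, adjusted p = 0.185). The sulphate transporter SLC26A2 had 706, 909 and 477 at 160dG, against 221, 319.9 and 268 at 125dG (1.29 ± 0.28, adjusted p = 0.0872). None of these 5 genes passed.

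In the distal tubule and collecting duct, 0 of 13 tested genes passed, 3 were higher at an unadjusted p under 0.05 (3.52% of all tested genes were), and the median was 0.13. Of the 13, 9 had a positive difference and 4 a negative one, against 49.3% positive of all tested genes. The most negative were TFCP2L1 (-0.50 ± 0.24) and GATA3 (-0.31 ± 0.16), both named after their values were seen. NR3C2, the mineralocorticoid receptor, had 446, 529.5 and 505 at 160dG, against 346, 353 and 227 at 125dG (0.67 ± 0.24). WNK1, a kinase that regulates salt transport, had a log2 difference of 0.52 ± 0.20 on the probe set used. Its other probe sets above the filter gave -0.05 ± 0.22 and -0.01 ± 0.37. CALB1, a calcium-binding protein of the distal tubule, had a log2 difference of 0.55 ± 0.24, with 0.86 ± 0.19 on a second probe set. AQP2, the vasopressin-regulated water channel, had 404, 399.5 and 310.0 at 160dG, against 290.0, 352 and 437 at 125dG (0.05 ± 0.21), so the 95% interval of its difference lay within -0.40 and 0.51. The thiazide-sensitive cotransporter SLC12A3 lay under the filter and averaged 195 ± 53.8 at 160dG and 176 ± 44.2 at 125dG (SD, n = 3 each).

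Podocyte and endothelial genes gave no call. Among 19 podocyte genes the median was 0.12, 0 passed, and 3 were higher and 2 lower at an unadjusted p under 0.05, against 3.52% and 4.74% of all tested genes. The small median thus covers differences in both directions. SEMA3G had 234, 391 and 280 at 160dG, against 201, 47.8 and 222 at 125dG, without overlap (1.07 ± 0.41; limma, adjusted p = 0.444). NPHS1, the slit diaphragm protein nephrin, had 231, 195 and 177 at 160dG, against 289, 165 and 232 at 125dG (-0.15 ± 0.34). PODXL, the surface sialoprotein podocalyxin, had a log2 difference of -0.23 ± 0.26. CLIC5, an ezrin-associated protein of the foot process, had 0.67 ± 0.27 on the probe set used but 0.05 ± 0.35 and -0.58 ± 0.25 on its others. VEGFA, the endothelial growth factor that podocytes secrete, had 5167, 3791 and 4754 at 160dG, against 3594, 3598 and 3327 at 125dG (0.37 ± 0.16). Its other probe sets gave smaller differences of 0.11 ± 0.26, 0.17 ± 0.27 and 0.24 ± 0.15. None of the 14 endothelial genes had an unadjusted p under 0.05, and their median was 0.08.

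Of the stromal and matrix genes COL2A1, which is also in the nephron progenitor list, alone passed. In the renal stroma list, 6 of 18 genes were lower and 1 higher at an unadjusted p under 0.05, against 4.74% and 3.52% of all tested genes, and the median was -0.19. FOXD1, the transcription factor of cortical stromal progenitors, had 275, 318 and 457 at 160dG, against 462, 468 and 637 at 125dG (-0.57 ± 0.21), and the stages did not overlap. MEIS1, a homeobox gene of the stroma, had a log2 difference of -0.44 ± 0.15. In the matrix list, 9 of 29 genes were lower at an unadjusted p under 0.05 and 0 higher, against the same 4.74% and 3.52%, with a median of -0.24. Of the 29, 8 had a positive difference. Without overlap 3 were higher and 9 lower, against 7.01% and 8.11% of all tested genes. COL2A1 was among 3 of the 29 that averaged under the filter's signal of 178 at 160dG, and so were tested because of other stages. FBN2, the fetal fibrillin of elastic microfibrils, had 268, 245 and 239 at 160dG, against 425, 374 and 665 at 125dG (-0.88 ± 0.21, adjusted p = 0.126). LOXL1, which cross-links elastin, had 681, 826 and 865 at 160dG, against 1254, 1297 and 1188 at 125dG (-0.65 ± 0.16, adjusted p = 0.126). COL1A1, the main chain of type I collagen, had a smaller difference of -0.39 ± 0.13.

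**Figure D4:**
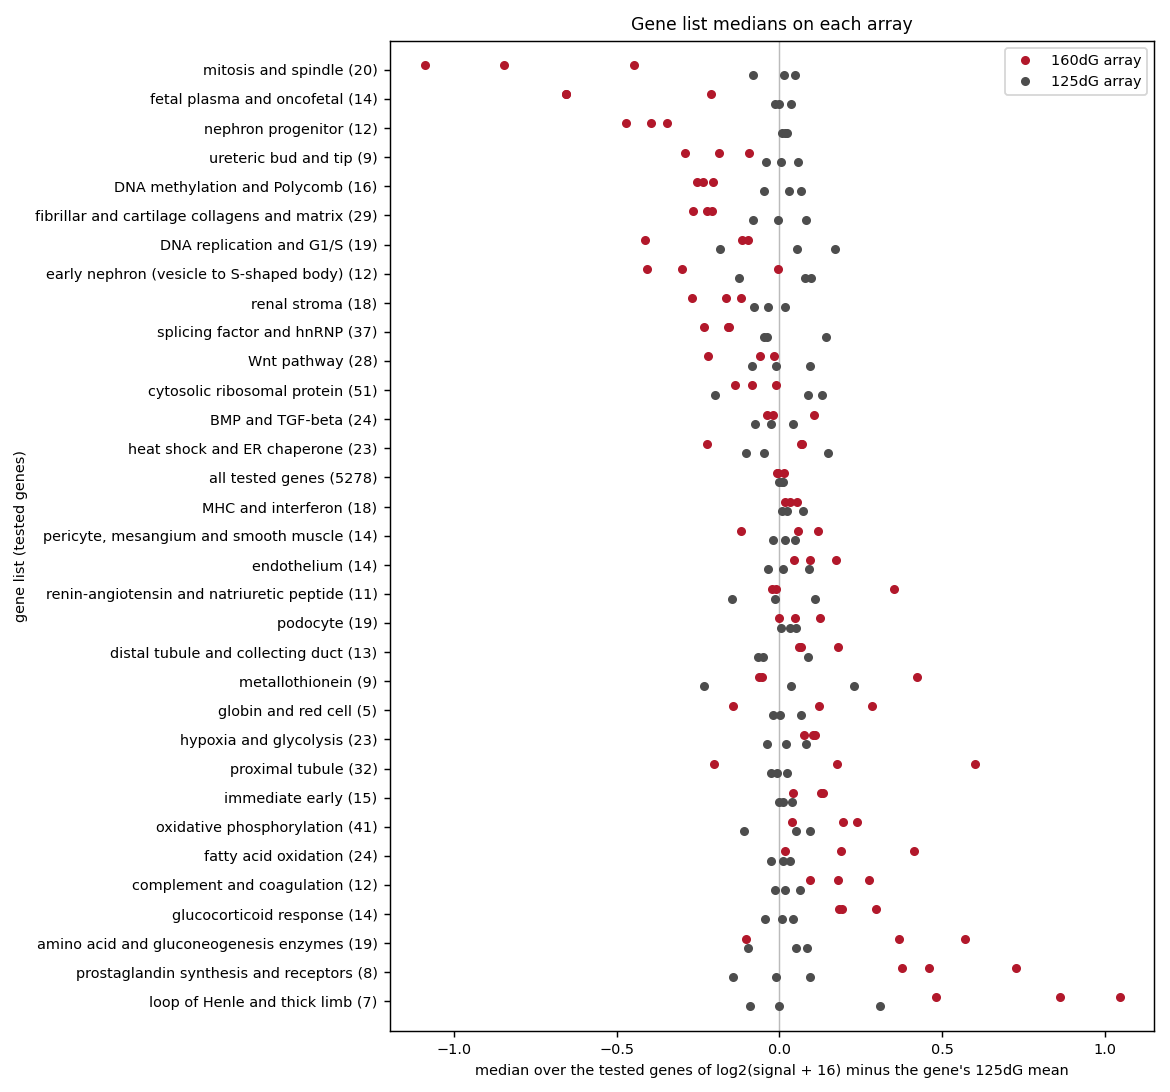
Median over the tested members of each gene list of log2(signal + 16) relative to the gene's own 125dG mean, 1 point an array, with 160dG arrays in red above 125dG arrays in grey and the number of tested genes in brackets. Mitosis and spindle stands farthest to the left, with 160dG points at -1.09, -0.45 and -0.85, and loop of Henle farthest to the right, at 1.05, 0.86 and 0.48, while the 160dG points of the proximal tubule list lie on both sides of 0.

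Genes of fuel use had slightly positive medians and gave no call. Of 24 genes of fatty acid oxidation, the main energy source of the mature proximal tubule, 20 had a positive difference (49.3% of all tested genes did) and 5 had an unadjusted p under 0.05, all higher (3.52% of all tested genes were). Their median was 0.18. PPARGC1A, a coactivator of mitochondrial genes, had 714, 622 and 707 at 160dG, against 335, 414 and 444 at 125dG, without overlap (0.76 ± 0.28, adjusted p = 0.423). ACSL1, which activates long fatty acids, had 619, 449 and 392 at 160dG, against 214, 319.5 and 266 at 125dG (0.82 ± 0.24, with 1.20 ± 0.24 on a second probe set). The peroxisomal enzymes HSD17B4 and PHYH had log2 differences of 0.68 ± 0.22 and 0.64 ± 0.21. Of 41 subunits of oxidative phosphorylation 34 had a positive difference, against the same 49.3%, with a median of 0.17 and with 2 at an unadjusted p under 0.05, NDUFS3 (0.38 ± 0.15) and SDHA (0.46 ± 0.22). Amino acid and gluconeogenesis enzymes had a median of 0.29 over 19 genes, with -0.10 on 160dG replicate 2, the array on which the proximal tubule list was also low.

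Splicing, ribosomal and chaperone genes had medians below or near 0, and genes of hypoxia and glycolysis had a slightly positive one. Of 37 splicing factors 8 had a positive difference, against 49.3% of all tested genes, with a median of -0.17 and with 6 lower at an unadjusted p under 0.05, against 4.74%. HNRNPL had a log2 difference of -0.61 ± 0.20 on one probe set and of -0.35 ± 0.15 on another. The 51 cytosolic ribosomal proteins had a median of -0.09, which was 0.02 after quantile normalization, and none reached an unadjusted p under 0.05. Heat shock and chaperone genes had a median of -0.02 over 23 genes. Genes of hypoxia and glycolysis had one of 0.15 over 23, among them CA12, a carbonic anhydrase, with 1211, 1120.2 and 1285 at 160dG, against 842, 649 and 759 at 125dG (0.68 ± 0.20).

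Fetal cortisol rises towards term, but it was not measured here and any link to it was not tested. A list of 14 genes that glucocorticoids induce had a median of 0.28. Of these 12 had a positive difference, against 49.3% of all tested genes, and 3 were higher without overlap between stages, against 7.01%, but none reached an unadjusted p under 0.05. Complement and coagulation genes had a median of 0.27 over 12. Among them C7, a component of the membrane attack complex, had 603, 526 and 491 at 160dG, against 337, 341 and 336 at 125dG (0.65 ± 0.24, adjusted p = 0.423). The 18 genes of antigen presentation and interferon response had a median of 0.06, and the 9 metallothioneins and their regulators one of 0.13. None of these 2 lists had a member at an unadjusted p under 0.05. Immediate early genes had a median of 0.16 over 15, again with none, and the BMP and TGF-beta list had one of -0.04 over 24, with SMURF2 at 0.56 ± 0.22 and BMP7 on the other side.

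Markers of tissues that a whole kidney could carry along were mostly under the signal filter. None of 5 measured urothelial genes and none of 12 skeletal muscle genes passed it. The summed signal of the urothelial genes lay between 297.9 and 426 at 160dG and between 270.7 and 460.6 at 125dG. Of 9 measured adrenal genes 2 passed the filter, FDX1 and DLK1, which the fetal kidney also expresses. The other 7 averaged between 7.1 and 127 at 160dG and between 6.4 and 79.5 at 125dG, and the whole list summed to 2420.3 to 3880.6 at 160dG and to 2332.4 to 2654.4 at 125dG. Of 5 measured adipocyte genes 2 passed, and the list summed to 471.0 to 652.3 at 160dG and to 506.8 to 766.3 at 125dG. Of 10 measured neural and Schwann genes TUBB3, a beta-tubulin, alone passed the filter. It had 1222, 1074 and 1053 at 160dG, against 1833, 1642 and 1324 at 125dG, without overlap (-0.50 ± 0.16, adjusted p = 0.314), and a second probe set gave -0.11 ± 0.30. The other 9 averaged between 9.3 and 180 at 160dG and between 5.93 and 129 at 125dG. Over all 10 measured neural and Schwann genes 8 had a positive difference, unlike TUBB3, and the median was 0.313. Over all 9580 measured genes 52.3% were positive, with a median of 0.02. Only 4 of 24 measured leukocyte genes lay above the filter, and their median difference was 0.20.

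The step from 125dG to 160dG was set against the equally long step from 90dG to 125dG. In the later step 4 genes rose and 13 fell, against 135 that rose (2.56%) and 138 that fell (2.61%) in the earlier one, in the same fit and with the 125dG arrays in both. The 3′ to 5′ GAPDH ratio lay between 1.66 and 1.99 at 125dG, against between 1.78 and 3.43 at 90dG. The geometric mean of the hybridisation control probe sets was 581 on 90dG replicate 1, against 1724 to 2007 on the 125dG and 160dG arrays. The part of these values in the earlier count was not tested. In the test of the difference between the steps itself, 0 of 5278 genes passed in limma (0%), and 475 (9%) had an unadjusted p under 0.05. The lowest adjusted p was 0.124, reached by EAPP (2.50 ± 0.41) and PCK1 (1.94 ± 0.35) among others. PCK1 averaged 118, 477, 235 and 483 at 60dG, 90dG, 125dG and 160dG, so it was low at 125dG between higher neighbours. Since a high or low 125dG mean moves both steps in opposite directions, the sign of this difference is tied to the 125dG arrays.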

How the data were processed

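Total RNA of whole baboon kidney was labelled as biotinylated cRNA and hybridised to human Affymetrix arrays, per the labels. The deposited intensity values, 1 per probe set and linear in scale, came from GCOS, per the submitters' processing notes. No version, algorithm or scaling of it is stated in the sources used here. The intensities were used without rescaling.

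Genes were named through the platform annotation. Of 16186 probe sets, 43 were controls, 14068 had 1 gene symbol, 735 several and 1340 none. The brightest probe set, by its mean on the 11 fetal arrays, stood for each of 9580 genes. Genes whose mean log2(signal + 16) exceeded the median of all probe sets (7.60, a signal of 178) were kept, 5278 in all. All fetal arrays entered 1 limma fit (version 3.58.1, R 4.3.3, lmFit, trended eBayes), with Benjamini-Hochberg adjustment over all tested genes. The scripts were tested on simulated data.

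The members and the 39 gene lists were chosen with earlier results of these data known, so lists are described by counts and medians and were given no test. Named genes were all called genes, the 10 with the largest difference each way among those without overlap and with an unadjusted p under 0.01, up to 4 members of each list with the smallest unadjusted p under 0.05, and a fixed set of kidney genes. No gene passed for the difference between steps. Adult arrays are of another type and are only described. Genome positions and probe sequences were not used here. Figures were drawn with matplotlib 3.10.9. The alternatives tried were pseudocounts of 1 and 64, a filter at the 0.75 quantile or none, quantile normalization, no trend, array weights, a replicate block, all probe sets, a GAPDH ratio covariate, fewer groups, and leaving out each array.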

Additional observations from a re-analysis of the deposited data

How the results depend on the processing

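The count of 17 calls changed to 6 with the filter at the 0.75 quantile, 7 without a trend, 1 in a fit of the 6 arrays, 9 without the 90dG group and 5 with the replicate number as a block. Leaving out 1 array gave between 0 (without 125dG replicate 1) and 23 (without 160dG replicate 2) calls. The labels do not say whether the replicate numbers pair the samples. The deviations of same-numbered arrays correlated at -0.03, -0.05 and -0.01 over genes, and those of differently numbered arrays between -0.118 and 0.165. With 3 arrays a stage these values cannot show whether samples were paired, and the replicate block is given only here. The other alternatives gave between 12 and 18 calls. Of 381 values of the called genes under the alternatives, 215 kept their call, 166 lost it and 0 changed sign. The difference between steps gave 0 calls wherever it was fitted, which excludes the fit of 6 arrays and that without 90dG. The nephron progenitor median was -0.50 with the filter at the 0.75 quantile, and -0.51 to -0.33 when 1 array was left out. Of 736 list medians under the alternatives, 59 in 18 lists moved by at least the SD between the 160dG arrays, 35 of them when 1 array was left out. They were most frequent for DNA methylation and Polycomb (9, between -0.287 and -0.162), hypoxia and glycolysis (8, between 0.0725 and 0.185), the distal tubule (6, between 0.211 and 0.291) and matrix (5, between -0.211 and -0.154). The fetal plasma and oncofetal median was -0.147 without a filter, and the DNA replication median -0.666 with the filter at the 0.75 quantile. In 17 cases in 10 lists, all with a median of at most 0.16 in size, the sign changed, among them globin (-0.46) and renin-angiotensin genes (-0.133) with the filter at the 0.75 quantile. The lists whose median was larger than that SD and still changed sign were endothelium (-0.0232 with the filter at the 0.75 quantile, and between -0.0543 and 0.0885 when 1 array was left out), antigen presentation (between -0.0242 and 0.094 when 1 array was left out, below 0 without 160dG replicate 1 or 2), immediate early genes (-0.0301 with the filter at the 0.75 quantile) and ribosomal proteins (0.0181 after quantile normalization). The filter at the 0.75 quantile tests fewer genes and leaving out arrays uses fewer samples; for the other changes the cause was not tested. Arrays give no count depth, and genes under the signal filter have no test.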

Other observations

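The labels give no sex. On all 6 arrays of these stages the Y-linked ribosomal protein gene RPS4Y1 was bright, between 3331.6 and 4855.1 at 160dG and between 3930.4 and 5104.1 at 125dG. The RNA of X inactivation, XIST, was dim on the same arrays, between 50.2 and 92.2 at 160dG and between 57.2 and 75.9 at 125dG. Of the fetal arrays, 60dG replicate 1 had the opposite pattern, with 90.2 for RPS4Y1 and 4589.4 for XIST, and it enters the fit of 11 arrays. Without 60dG replicate 1 the comparison of 160dG with 125dG gave 13 calls.

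Several genes outside the lists had large differences without overlap between the stages and did not pass the test. RGCC, a regulator of the cell cycle that responds to complement, had 317, 363 and 492 at 160dG, against 117, 192 and 169 at 125dG (1.21 ± 0.28; limma, adjusted p = 0.126). SOSTDC1, an extracellular antagonist of BMP and Wnt signals, had 456, 298 and 449.6 at 160dG, against 196, 249 and 107 at 125dG (1.11 ± 0.34; limma, adjusted p = 0.285). ERF, a repressor of ETS target genes, had 315, 298 and 168 at 160dG, against 694, 702 and 653 at 125dG (-1.39 ± 0.33; limma, adjusted p = 0.133). PCDH9, a protocadherin, had 44.4, 249 and 379 at 160dG, against 575, 544 and 555 at 125dG (-1.63 ± 0.49; limma, adjusted p = 0.277), with a wide spread at 160dG and a narrow one at 125dG. SULT1E1, which inactivates oestrogens by sulphation, had 183, 90.8 and 279.8 at 160dG, against 486, 529 and 314 at 125dG (-1.28 ± 0.36; limma, adjusted p = 0.221).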
